A study of Nicotiana tabacum with 12 samples.

Results

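The genes described here encode proteins of the light-harvesting antenna of photosystem II and the protein that switches on its thermal quenching. They were taken by identifier: LOC107776229 (CAB21), LOC107774251 (Lhcb4), LOC107782430 (Lhcb5), LOC107792047 (Lhcb6) and LOC107778533 (psbS). These are 5 of 61526 genes in the count table, and all 5 were among the 39207 genes that passed the filter on low counts.

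Leaf RNA of burley tobacco (Nicotiana tabacum, cultivar TN90) was sequenced in 12 libraries, with 3 libraries in each of 4 groups. P2.4a and P3.9a, like P9.10a, are transgenic lines in which the constitutive 35S promoter drives NtYb1 (EGY2); the fourth group is untransformed and called CK. The lines descend from different primary transformants, per the labels' protocols, and were sampled as green-stemmed segregants in a field. TN90 is the background of every group. The treatment text gives the P3 plant another number than the titles do, and the titles were followed. The series asked which pathways of carbon and nitrogen metabolism differ between engineered and wild-type plants. The labels speak of biological replicates without saying how many plants entered each, and p-values measure the spread between these libraries.

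Antenna proteins hold chlorophyll a and b in the thylakoid membrane and pass the absorbed energy to the reaction centre. CAB21 encodes a chlorophyll a/b-binding protein of the major antenna, whereas Lhcb4, Lhcb5 and Lhcb6 encode minor antenna proteins that sit between the major antenna and the photosystem core. PsbS responds to the acid lumen of a strongly lit thylakoid and lets the antenna release excess energy as heat, which is called non-photochemical quenching. In Arabidopsis, EGY proteins are plastid membrane metalloproteases, and plants without EGY1 are pale green and have less antenna protein. RNA was measured here, not protein.

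Totals ran from 13536964 to 16788583 counts in the transgenic libraries and from 16657112 to 18444571 in CK. P3.9a replicate 1 stood apart on the first principal component of log2 CPM (counts scaled to a common library size), at -77.4 against -26.5 to 40.3 for the other 11 libraries. CK replicate 3 stood apart on the second component, at 62.8 against -32.3 to 22.2 for the other 11 libraries. Leaf markers were high in every library: the summed level of a pair of Rca copies, GAPA and GAPB ran from 5837 to 9984 CPM in transgenic libraries and from 7338 to 8583 CPM in CK. The root marker TobRB7 stayed between 0.471 and 1.92 CPM in transgenic libraries and between 0.736 and 1.22 CPM in CK. Leaves hold several cell types, so fewer cells of a type and less RNA per cell cannot be told apart.

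CAB21 was the antenna gene that varied least among the CK libraries. Its level in P2.4a was 3324, 3072 and 2750 CPM in replicates 1 to 3, in P3.9a 2311, 3173 and 2893 CPM, and in P9.10a 2833, 3004 and 3556 CPM, against 3151, 3249 and 3324 CPM in CK. Below every CK library lay 6 of the 9 transgenic libraries, above every CK library lay 2, and 15.3% of all tested genes had 6 or more of the 9 below. The groups overlapped in each line. Means were 3049 ± 288 CPM in P2.4a, 2793 ± 440 CPM in P3.9a, 3131 ± 378 CPM in P9.10a and 3241 ± 86.7 CPM in CK (SD, n = 3 each). The coefficient of variation was 9.44% to 15.7% within the lines and 2.67% within CK.

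Lhcb4 lay on both sides of CK. P2.4a had 1584, 1400 and 1493 CPM, P3.9a had 1240, 1563 and 1354 CPM, and P9.10a had 1303, 1549 and 1841 CPM, against 1368, 1523 and 1459 CPM in CK. Of the 9 transgenic libraries, 3 lay below every CK library, 4 above and 2 within the CK range. Means were 1492 ± 92.2 CPM in P2.4a, 1386 ± 164 CPM in P3.9a, 1564 ± 270 CPM in P9.10a and 1450 ± 78.0 CPM in CK (SD, n = 3 each).

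Lhcb5 lay around the CK levels in the transgenic libraries, with a wider range. P2.4a had 1700, 1476 and 1634 CPM, P3.9a had 1421, 1733 and 1372 CPM, and P9.10a had 1376, 1707 and 1986 CPM, against 1429, 1661 and 1737 CPM in CK. Of the 9 transgenic libraries, 5 lay within the CK range, 3 below it and 1 above it. Means were 1603 ± 115 CPM in P2.4a, 1509 ± 196 CPM in P3.9a, 1690 ± 306 CPM in P9.10a and 1609 ± 161 CPM in CK (SD, n = 3 each).

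Lhcb6 had the widest relative spread of the antenna genes over the 9 transgenic libraries. P2.4a had 704, 587 and 695 CPM, P3.9a had 565, 710 and 538 CPM, and P9.10a had 555, 692 and 861 CPM, against 609, 722 and 700.3 CPM in CK. Of the 9 transgenic libraries, 4 lay below the CK range, 4 within it and 1 above it. Means were 662 ± 65.0 CPM in P2.4a, 604 ± 92.2 CPM in P3.9a, 702 ± 153 CPM in P9.10a and 677 ± 59.8 CPM in CK (SD, n = 3 each). The coefficient of variation over the 9 transgenic libraries was 15.9%, and at most 12.9% for the other antenna genes.

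The quenching gene psbS stood lower than CK on average in every line. P2.4a had 2100 CPM in replicate 1, 1580 CPM in replicate 2 and 1792 CPM in replicate 3. P3.9a had 1273, 1923 and 1642 CPM and P9.10a had 1661, 1889 and 2003 CPM, against 1892, 2200 and 2482 CPM in CK. No transgenic library lay above the CK range: 6 of 9 lay below it, as 6 or more did for 15.3% of tested genes, and 1 library of each line lay within it. Means were 1824 ± 261 CPM in P2.4a, 1613 ± 326 CPM in P3.9a, 1851 ± 174 CPM in P9.10a and 2191 ± 295 CPM in CK (SD, n = 3 each).

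**Figure D1:**
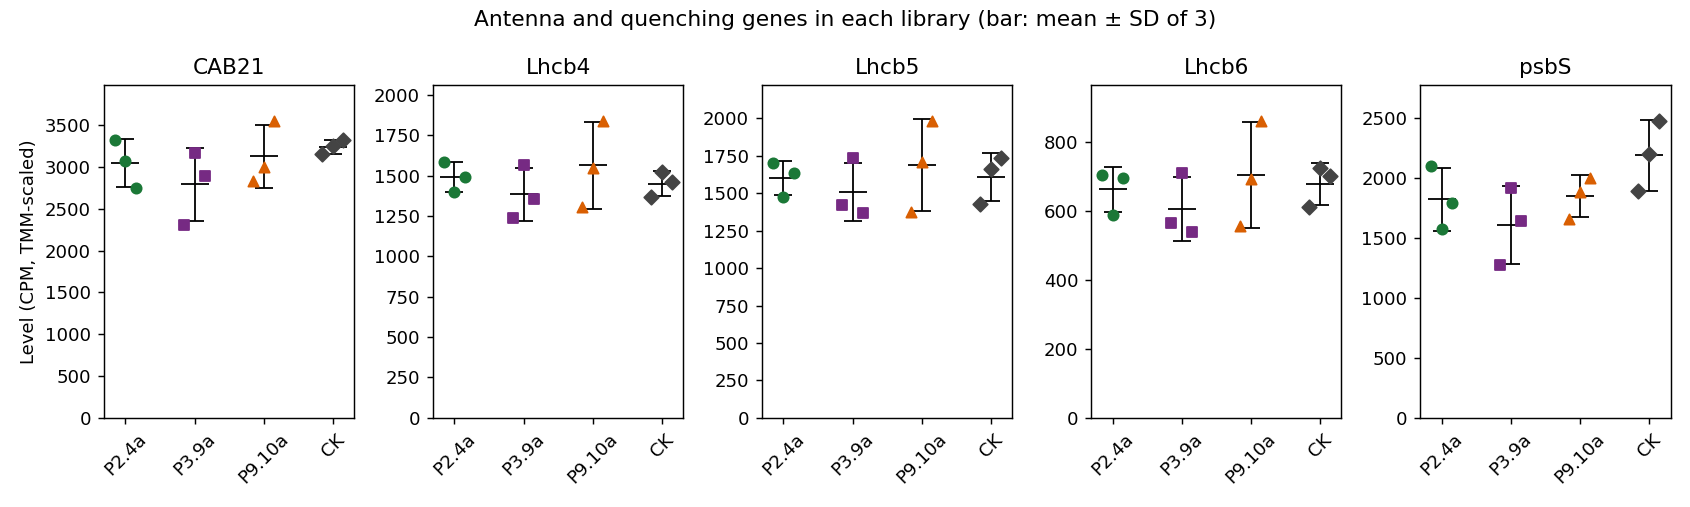
Level of each gene in the 12 libraries, in CPM scaled by the TMM method, by group; points are libraries and bars the mean ± SD of 3. The CK points of psbS reach 2482 CPM and its transgenic points 2100 CPM at most, while the 4 antenna genes have transgenic points on both sides of CK.

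The order of the group means differed between genes. CAB21 and psbS were highest in CK, followed by P9.10a, P2.4a and P3.9a, whereas Lhcb5 and Lhcb6 ran from P9.10a through CK and P2.4a to P3.9a. Lhcb4 ran from P9.10a through P2.4a and CK to P3.9a. In all 15 pairs of neighbouring groups, 3 for each gene, the ranges of the libraries overlapped. P3.9a had the lowest mean for all 5 genes, and of 4 without its replicate 1, when CK was lowest for Lhcb4. P3.9a replicate 1 held the lowest level of CAB21, Lhcb4 and psbS, P3.9a replicate 3 the lowest of Lhcb5 and Lhcb6, and P9.10a replicate 3 the highest of all 4 antenna genes.

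In the mean of the 3 lines against CK, no gene of the 5 passed the threshold in edgeR's quasi-likelihood test at an adjusted p of 0.05. Of all 39207 tested genes, 15 passed, or 0.0383%. The fitted change of psbS was -0.32 on the log2 scale (SE 0.14, adjusted p = 0.425), or 0.803 of the CK level, with a 95% interval of -0.62 to -0.01. psbS was the 1 gene of the 5 with an unadjusted p under 0.05 (edgeR unadjusted p = 0.0437); 11.4% of all tested genes had one, 6.76% with a lower level. DESeq2 called 444 genes in all but none of the 5, and gave psbS -0.31 (SE 0.14, adjusted p = 0.368).

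The antenna genes stood nearer to CK. CAB21 had a fitted log2 change of -0.12 (95% interval -0.39 to 0.16), Lhcb4 one of 0.03 (-0.25 to 0.30), Lhcb5 one of -0.01 (-0.30 to 0.28) and Lhcb6 one of -0.05 (-0.35 to 0.26). Their edgeR adjusted p ran from 0.775 for CAB21 to 0.988 for Lhcb5. These intervals, before adjustment over all genes, allow a mean level between 0.762 of CK (CAB21, lower end) and 1.23 of CK (Lhcb4, upper end). They do not mark a limit of detection: POR1, described below, had a log2 change of 0.66 and did not pass after adjustment. The median over the 5 genes was -0.05, and that of all tested genes was 0.00205.

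Leaving out single libraries kept psbS negative in all 12 fits and never brought it past the threshold. Its lowest value, -0.41, came without CK replicate 1, and its highest, -0.22, on leaving out CK replicate 3. CK replicate 3 held the highest psbS level of all libraries and stood apart on the second principal component. The unadjusted p of psbS was over 0.05 in 8 of these 12 fits, up to 0.224 on leaving out CK replicate 3, so the end of its interval below 0 did not hold in them. For P3.9a against CK it was over 0.05 in 4 of 12 fits, up to 0.127 without P3.9a replicate 1. Without P3.9a replicate 1 the change of psbS in the mean of the 3 lines was -0.26 (SE 0.13, edgeR adjusted p = 0.329). The sign of Lhcb4, Lhcb5 and Lhcb6 turned in some of these fits, while that of CAB21 did not.

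**Figure D2:**
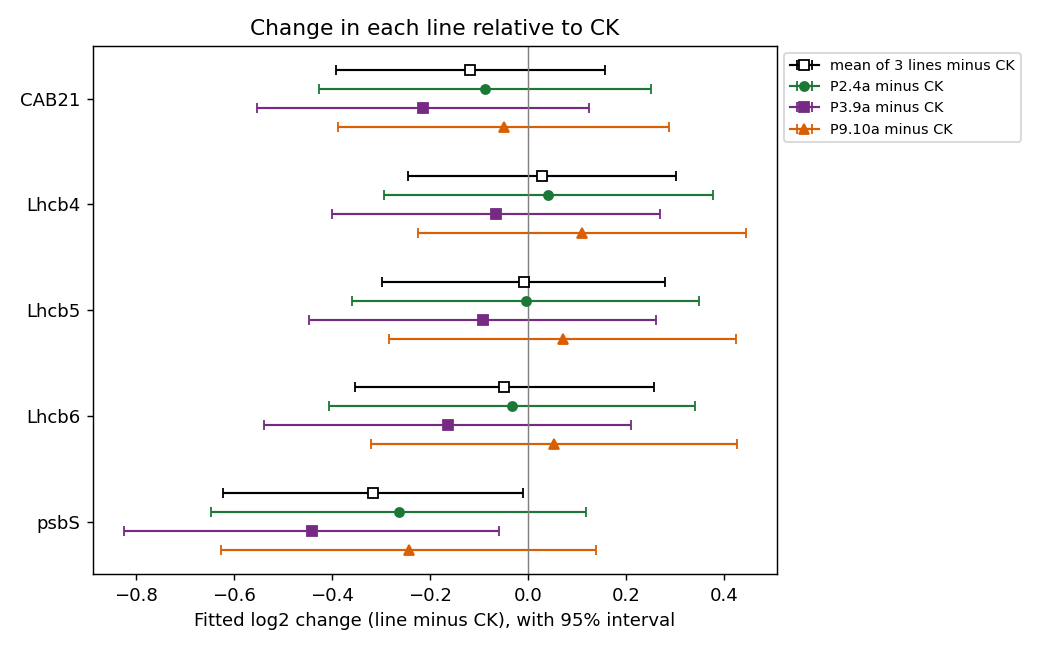
Fitted log2 change of each gene relative to CK, for the mean of the 3 lines (open squares) and for each line, with 95% intervals. Intervals of the 4 antenna genes cross 0 in every comparison; for psbS those of the mean of the 3 lines and of P3.9a end below 0, before adjustment over all genes.

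Each line was also set against CK, and the same 3 CK libraries served each time. In P2.4a the value of psbS was -0.26 (SE 0.18, edgeR adjusted p = 0.622), CAB21 one of -0.09, Lhcb4 one of 0.04, Lhcb5 one of -0.01 and Lhcb6 one of -0.03. None of the 5 passed, against 0.00765% of all tested genes, and none had an unadjusted p under 0.05, against 10.3% of all tested genes.

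In P3.9a all 5 genes stood below CK on average, as did 48.6% of all tested genes. psbS had the lowest fitted change at -0.44 (SE 0.18, edgeR adjusted p = 0.511), with a 95% interval of -0.83 to -0.06, and was the 1 gene of the 5 with an unadjusted p under 0.05 (edgeR unadjusted p = 0.0265), against 8.57% of all tested genes. CAB21 had -0.22 (SE 0.16), Lhcb6 -0.16 (SE 0.18), Lhcb5 -0.09 (SE 0.17) and Lhcb4 -0.07 (SE 0.16). None passed, against 0.0357% of all tested genes. Without P3.9a replicate 1, psbS moved to -0.29, CAB21 to -0.09 and Lhcb4 to 0.01.

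In P9.10a the value of psbS was -0.24 (SE 0.18, edgeR adjusted p = 0.846) and CAB21 one of -0.05, while the minor antenna genes Lhcb4, Lhcb5 and Lhcb6 had 0.11, 0.07 and 0.05. None of the 5 passed, against 0.0128% of all tested genes, and none had an unadjusted p under 0.05, against 7.17%. P9.10a replicate 3 bore on the minor antenna values: without it Lhcb4 was at -0.02, Lhcb5 at -0.06 and Lhcb6 at -0.12.

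No gene of the 5 passed the test for a difference among the lines. In edgeR's test of equal levels in the 3 lines the unadjusted p was lowest at 0.480 for Lhcb6 and every adjusted p was 0.999966, while 0.00765% of all tested genes passed and 2.89% had an unadjusted p under 0.05. DESeq2 called 45 genes in all in its test among the lines, and none of the 5 either. The 15 pairwise differences between lines lay between -0.22 and 0.18 on the log2 scale, with a smallest adjusted p of 0.926.

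From library to library, the 5 genes varied together. Pearson's r of log2 CPM over the 12 libraries was 0.977 for Lhcb5 and Lhcb6, 0.935 for Lhcb4 and Lhcb6 and 0.930 for Lhcb4 and Lhcb5, with Spearman's rho of 0.867, 0.874 and 0.846. These 3 pairs of minor antenna genes had the smallest p of the 10 pairs computed (permutation p = 3.00e-05, 4.00e-05 and 4.00e-05, adjusted p = 0.000133 for each). On deviations from the group means r was 0.980, 0.945 and 0.928 in the same order. The points share a library's depth and scaling factor, which enter both genes of a pair. The share of all gene pairs with such r was not computed. Genes outside the 5 reached r as high, as described below: the gene with the symbol RPL3 had 0.993 to Lhcb4. The p therefore do not show that these pairs stand apart from other genes.

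CAB21 had r of 0.837 to psbS (rho = 0.839, permutation p = 0.00105, adjusted p = 0.00262), 0.764 to Lhcb4, 0.659 to Lhcb5 and 0.675 to Lhcb6, with rho of 0.741, 0.741 and 0.776 to the minor antenna genes. The permutation p of the 3 minor antenna pairs were 0.00506, 0.0170 and 0.0143 (adjusted p = 0.0101, 0.0189 and 0.0189). The 2 libraries farthest from the median of CAB21 were P3.9a replicate 1 and P9.10a replicate 3. Without them r to psbS was 0.749, but r to Lhcb4, Lhcb5 and Lhcb6 was 0.470, 0.521 and 0.511 and no longer passed. With fewer libraries, a lost pass cannot show that these 3 relations rest on the libraries left out. Leaving out P3.9a replicate 1 alone gave r of 0.679 to psbS, 0.682 to Lhcb4 and 0.685 to both Lhcb5 and Lhcb6, so the order of the 4 rests on that library. Leaving out P9.10a replicate 3 alone gave 0.550 to Lhcb5 and 0.571 to Lhcb6, which did not pass. On deviations from the group means r was 0.794 to psbS and 0.808 to Lhcb4, and differences between these r were not tested.

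psbS followed the minor antenna genes less closely, with r of 0.629 to Lhcb4, 0.666 to Lhcb5 and 0.685 to Lhcb6 and rho of 0.671, 0.741 and 0.811 (permutation p = 0.0293, 0.0167 and 0.0132, adjusted p = 0.0293, 0.0189 and 0.0189). Whether these r differ from those among the minor antenna genes was not tested. Within groups the relation to Lhcb4, Lhcb5 and Lhcb6 had r of 0.785, 0.765 and 0.7101, higher than over all libraries for each. Without the 2 libraries farthest from the median of the minor antenna gene, r was 0.551 and 0.667 for Lhcb4 and Lhcb6, which did not pass, and 0.726 for Lhcb5. The pair left out differed: P9.10a replicate 3 and P3.9a replicate 1 for Lhcb4, P9.10a replicate 3 and P3.9a replicate 3 for Lhcb5. For Lhcb6 it was P3.9a replicate 3 and P9.10a replicate 1.

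**Figure D3:**
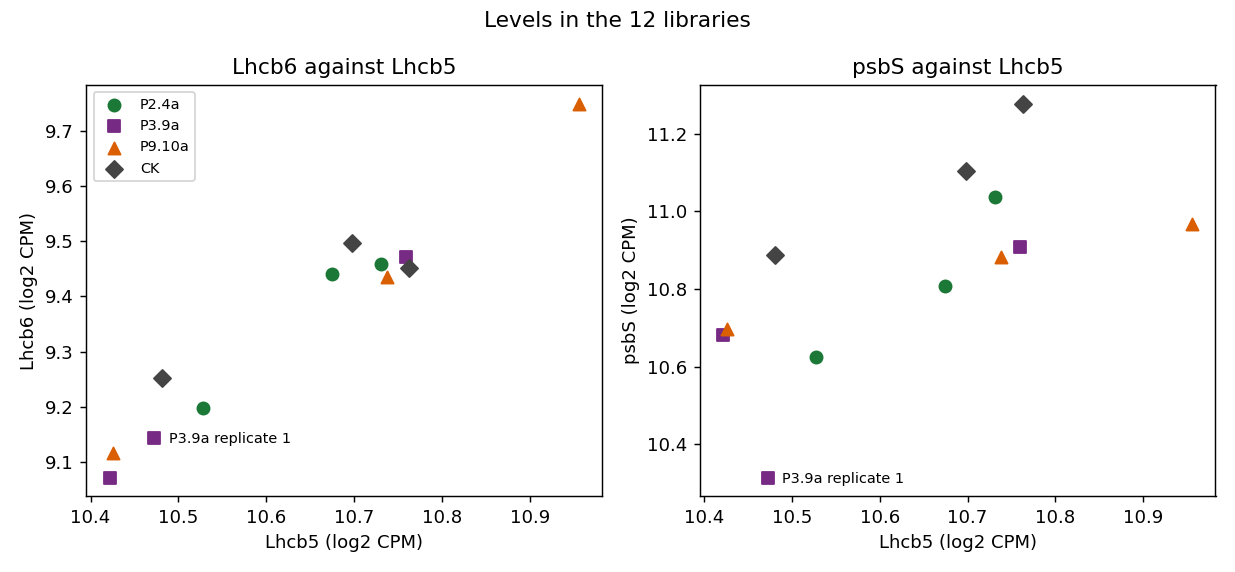
Levels of Lhcb6 (left) and psbS (right) against Lhcb5 in the 12 libraries, in log2 CPM, with 1 symbol per group. CK points lie among the others for Lhcb6 and above them at a like level of Lhcb5 for psbS; P3.9a replicate 1 is marked.

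The count of psbS relative to an antenna gene of the same library needs no scaling between libraries. The ratio to Lhcb5 was 1.24, 1.07 and 1.10 in P2.4a, 0.896, 1.11 and 1.197 in P3.9a and 1.21, 1.11 and 1.01 in P9.10a, against 1.32, 1.32 and 1.43 in CK. All 9 transgenic libraries lay below all 3 CK libraries. The same was true of 1.01% of all other tested genes set against Lhcb5. The ratio to Lhcb4 was 1.33, 1.13 and 1.2003 in P2.4a, 1.03, 1.23 and 1.21 in P3.9a and 1.27, 1.22 and 1.09 in P9.10a, against 1.38, 1.44 and 1.70 in CK. Again all 9 lay below all 3, as 1.23% of all other tested genes did against Lhcb4.

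The other antenna ratios overlapped; 0.457% of all other tested genes had all 9 transgenic libraries below CK against Lhcb6, and 0.337% against CAB21. Relative to Lhcb6, psbS had 2.252 to 3.05 in the 9 transgenic libraries (median 2.71) and 3.05, 3.11 and 3.54 in CK; P3.9a replicate 3, at 3.053, lay just above the lowest CK library, at 3.046. Relative to CAB21 it had 0.514 to 0.652 in the transgenic libraries (median 0.586) and 0.601, 0.677 and 0.747 in CK. The log2 ratio of psbS in the mean of the 3 lines minus CK was -0.34 to Lhcb4, -0.31 to Lhcb5, -0.26 to Lhcb6 and -0.19 to CAB21. With 1 library left out these values ran from -0.40 to -0.25, from -0.34 to -0.27, from -0.30 to -0.19 and from -0.28 to -0.12 in that order. The ratios were chosen after the levels had been seen and were given no test.

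The summed level of dividing-cell markers did not overlap between the transgenic libraries and CK, and those of the other marker lists did. The summed level of 4 dividing-cell genes, CycD3.1, a gene with the symbol cyclin and a pair of PCNA copies, was 64.0 to 108 CPM in the 9 transgenic libraries and 53.2 to 60.9 CPM in CK, with none of the 4 at 0. CycD3.1 and cyclin each lay above CK in all 9 transgenic libraries, as 0.9% of all tested genes did. CycD3.1 nearly touched CK, at 25.66 to 36.6 CPM in transgenic libraries and 21.2 to 25.64 CPM in CK. The gene cyclin had 22.0 to 33.8 CPM in transgenic libraries and 16.4 to 17.4 CPM in CK. The PCNA copies overlapped with CK, at 8.38 to 19.6 CPM and 5.09 to 18.2 CPM in transgenic libraries and 9.45 to 11.6 CPM and 6.17 to 7.21 CPM in CK. SEN4, a senescence-associated gene, had 9.46 to 18.6 CPM in transgenic libraries and 15.7 to 22.0 CPM in CK, and the trichome gene NtABS had 61.2 to 136 CPM in transgenic libraries and 62.3 to 68.8 CPM in CK. SAG12, another senescence gene, was listed at 0 counts in all 12 libraries. A pair of vascular genes, SEO1 and SEO2, summed to 195 to 235 CPM in transgenic libraries and 166 to 211 CPM in CK, and 3 flower genes to 31.9 to 66.1 CPM in transgenic libraries and 48.8 to 53.1 CPM in CK. The part of these in the level of psbS was not tested.

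**Figure D4:**
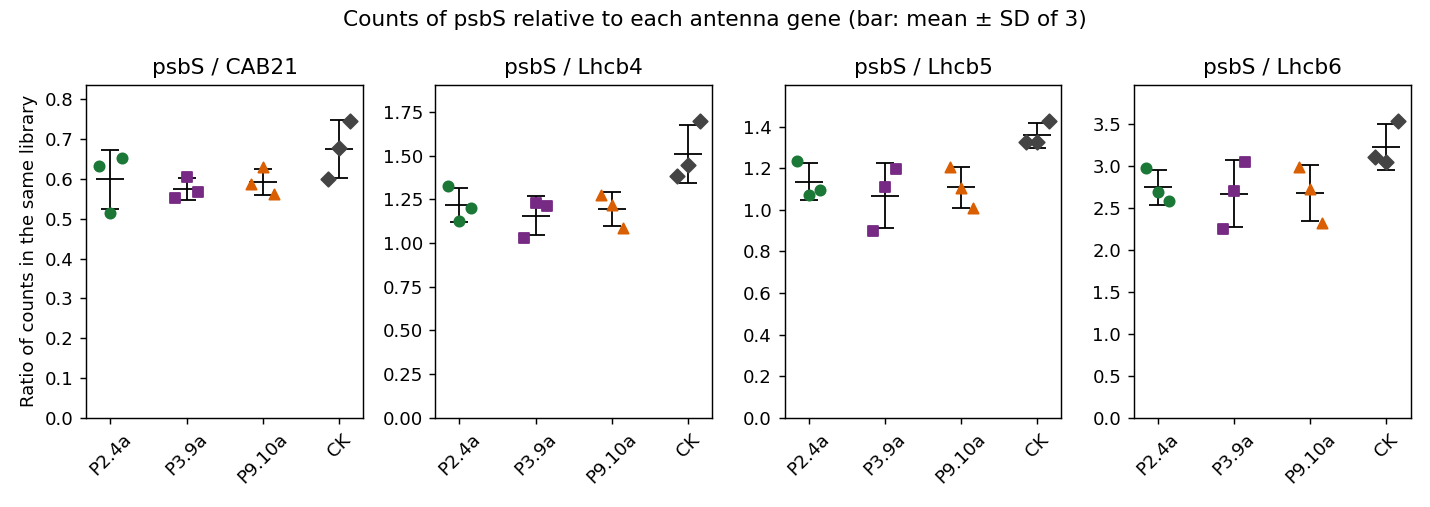
Ratio of psbS counts to counts of each antenna gene in the same library, by group; points are libraries and bars the mean ± SD of 3. The transgenic points lie below all CK points for Lhcb4 (at most 1.33 against at least 1.38) and Lhcb5 (at most 1.24 against at least 1.32), and overlap with CK for Lhcb6 and CAB21.

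Other photosynthesis genes with a symbol were read in 7 lists with 34 genes, of which 33 were tested. None passed in the mean of the 3 lines in edgeR, 3 had an unadjusted p under 0.05, against 11.4% of all tested genes, and 24 stood below CK, against 49.7%. No other light-harvesting gene was matched to a symbol. Of the 8 genes of the photosystem II core and oxygen-evolving proteins 7 stood below CK (median log2 change -0.08); PSBR, a small photosystem II subunit, had -0.21 (SE 0.14), and PsbQ (LOC107816469), of the oxygen-evolving complex, had -0.15 (SE 0.14). Of the 4 electron transport genes petC, the Rieske protein of the cytochrome complex, had -0.23 (SE 0.14) and FNR, a gene with the symbol of ferredoxin-NADP reductase, 0.16 (SE 0.11).

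Xanthophylls are the pigments that work with PsbS in quenching. All 8 genes of the xanthophyll cycle and carotenoids stood below CK, with a median of -0.18, and none passed. Without P3.9a replicate 1, 7 of 8 stood below CK, ZDS stood at 0.0016, and again none passed. CRTISO (LOC107805441), a carotenoid isomerase, had -0.21 (SE 0.09, unadjusted p = 0.0339, adjusted p = 0.396 in edgeR), and psy-1, a phytoene synthase, had -0.25 (SE 0.13). VDE, the violaxanthin de-epoxidase that makes the quenching pigment zeaxanthin, was named after its value was seen. It had -0.15 (SE 0.11, edgeR adjusted p = 0.631), with a mean of 105 CPM in the transgenic libraries and 117 CPM in CK. For VDE 7 of 9 transgenic libraries lay below the CK range, as 7 or more did for 9.32% of tested genes. BCH2, also named after its value was seen, had the lowest change of the 8, at -0.37 (SE 0.20, edgeR adjusted p = 0.525). Without P3.9a replicate 1 BCH2 stood at -0.50 (edgeR adjusted p = 0.0684). Over the 12 libraries Pearson's r to psbS was -0.07 for BCH2 and 0.85 for VDE.

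Of the 6 chlorophyll synthesis genes 5 stood above CK, with a median of 0.10. POR1, a light-dependent protochlorophyllide oxidoreductase, had a mean of 20.4 CPM in transgenic libraries and 12.9 CPM in CK, a log2 change of 0.66 (SE 0.16, edgeR adjusted p = 0.118); it passed without P3.9a replicate 1 (0.63, edgeR adjusted p = 0.0459), a fit in which 740 of 39628 genes, or 1.87%, passed. POR2, its relative, had 0.29 (SE 0.15). Of the tested pair of breakdown and senescence genes, SEN4 had -0.58 (SE 0.18, edgeR adjusted p = 0.238), with 8 of 9 below the CK range (8 or 9 for 4.90% of tested genes), and passed in that same fit (-0.69, edgeR adjusted p = 0.0162). The other, a gene placed in the list by the symbol pao alone, had 0.05 (SE 0.36) at a low mean of 0.774 CPM in CK. Of the 4 carbon fixation genes, Rca (LOC107819807), a Rubisco activase, had -0.20 (SE 0.17) and GAPA, a plastid glyceraldehyde-3-phosphate dehydrogenase, -0.10 (SE 0.16); cnd41, a chloroplast protease, had -0.08 (SE 0.12).

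**Figure D5:**
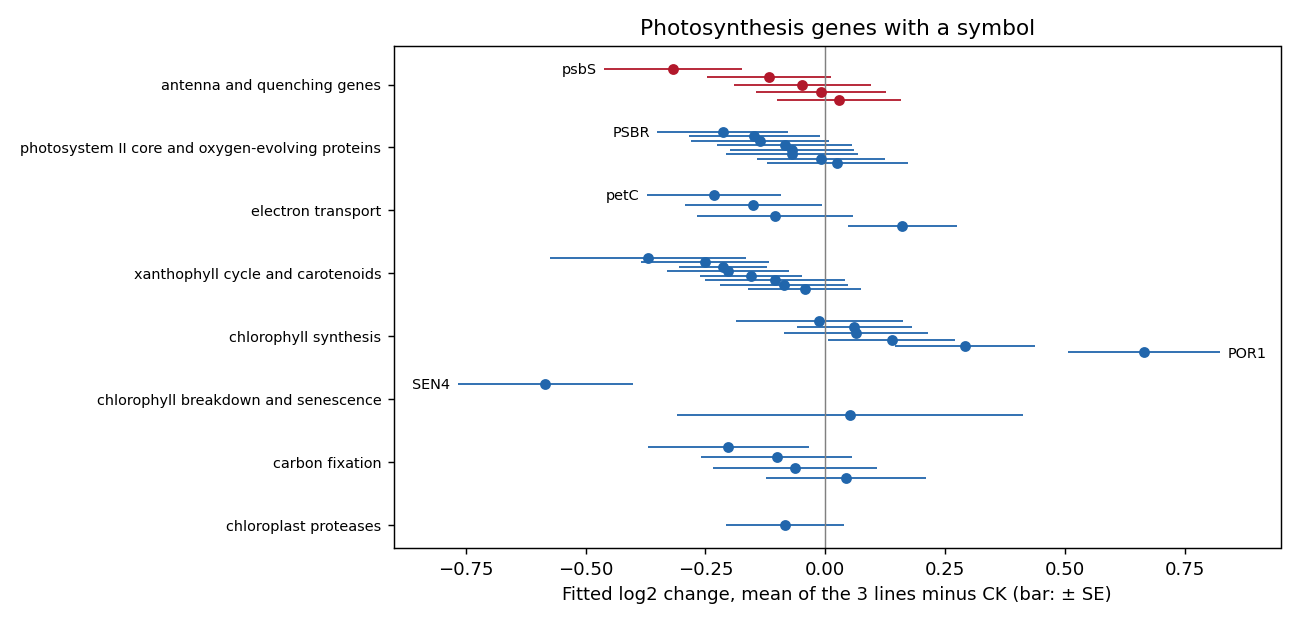
Fitted log2 change in the mean of the 3 lines minus CK for the 5 antenna and quenching genes (top row) and for the 33 tested photosynthesis genes by list; points are genes and bars ± SE. None passed the threshold; POR1 at 0.66 and SEN4 at -0.58 lie farthest from 0, and psbS at -0.32 lies farthest from 0 among the 5.

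The genes with the most similar pattern over the 12 libraries were sought among 832 genes with a symbol and a mean log2 CPM of 1 or more, by Pearson's r as a description. Lhcb5 and Lhcb6 shared their nearest genes: PSBP3 (LOC107830202), of the oxygen-evolving complex, at r of 0.969 and 0.956, and GAPA at 0.951 and 0.956. Lhcb4 was nearest to the gene with the ribosomal protein symbol RPL3 (0.993) and PSBP3 (0.962). CAB21 was nearest to EF-Tu, an organelle-type translation elongation factor (0.968), and to dtc3 (0.951). psbS was nearest to SSR1 (0.932) and c1pp (0.932).

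For the mean of the 5 standardized levels, the nearest genes with a symbol were GAPA (0.970), the plastid ribosomal protein gene CL12 (0.960), atpD (0.951), petC2, a second Rieske gene (0.951), and RPL3 (0.948). Among 32368 genes with no symbol they were LOC107808435 (0.994), LOC107820363 (0.991) and LOC107832794 (0.982). That mean was lowest in P3.9a replicate 1, at -1.64 standard deviations, and highest in P9.10a replicate 3, at 1.58. Without P3.9a replicate 1, GAPA stood at 0.988. The summed mesophyll level was 9984 CPM in P9.10a replicate 3, the highest of all, 5837 CPM in P3.9a replicate 3, the lowest, and 6537 CPM in P3.9a replicate 1.

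The 5 genes did not stand out in their spread. Within groups the SD of log2 CPM was 0.16 for CAB21 and Lhcb4, 0.18 for Lhcb5, 0.21 for Lhcb6 and 0.22 for psbS, against a median of 0.19 to 0.21 over the genes within 1 log2 unit of each one's level. CAB21 made up 0.246% to 0.341% of all counts in the transgenic libraries and 0.308% to 0.317% in CK, and psbS 0.136% to 0.202% in the transgenic libraries and 0.185% to 0.230% in CK.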

How the data were processed

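The authors deposited whole-number read counts per gene, not normalized, for 12 leaf libraries. The submitters' processing notes name HISAT2 2.1.0, SAMtools and bedtools 2.25.0. Build, annotation, counting rule and strand setting are unknown here, and no coordinates or sequences are printed. Near-identical copies may share or lose reads in such counting, and levels were not compared between genes.

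For names only, a table of assembly ASM71507v2 was used: it held 49014 of 61526 identifiers, and 1081 had a symbol or synonym. Totals ran from 13536964 to 18444571 counts, and no 2 libraries agreed within sampling noise (lowest chi-square per degree of freedom 5.09).

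The test was edgeR 4.0.16 under R 4.3.3, with TMM scaling, filterByExpr at a minimum count of 10, a robust quasi-likelihood fit over all 12 libraries and Benjamini-Hochberg adjustment over all tested genes (threshold 0.05). It was checked on simulated counts with changes larger than those fitted for the 5 genes, so the check does not cover changes of their size. CPM are per-library counts scaled with TMM, and intervals are 95% t intervals of the fitted change. Log2 CPM had a prior count of 2, and two-sided correlation p came from 100000 permutations, adjusted over 10 pairs. DESeq2 1.42.0 was an alternative. The members and lists were chosen with earlier results of these data known. Named genes were the 5 members, the 2 with the smallest p in each list and those nearest in pattern. The planned protein and promoter comparisons were not run.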

Additional observations from a re-analysis of the deposited data

How the results depend on the processing

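Of 655 values of the 5 genes under alternatives, 33 turned in direction and none passed the threshold. The other 622 include the adjusted p of the test among the lines, which has no direction to turn. RLE scaling, no filter on low counts, DESeq2 and fits of only the 6 libraries of a line and CK turned none. The turned values were all of antenna genes against CK, or of P2.4a minus P9.10a. With 1 library left out the log2 change in the mean of the 3 lines ran from -0.016 to 0.074 for Lhcb4, -0.088 to 0.049 for Lhcb5 and -0.12 to 0.0066 for Lhcb6. In P2.4a these 3 ran from -0.0038 to 0.085, -0.084 to 0.053 and -0.10 to 0.046, and in P3.9a Lhcb4 ran from -0.15 to 0.015. In P9.10a CAB21, Lhcb4, Lhcb5 and Lhcb6 ran from -0.15 to 0.027, -0.025 to 0.23, -0.062 to 0.21 and -0.12 to 0.21. For P2.4a minus P9.10a CAB21, Lhcb4, Lhcb5, Lhcb6 and psbS ran from -0.11 to 0.063, -0.19 to 0.066, -0.21 to 0.057, -0.23 to 0.087 and -0.13 to 0.072.

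The number of all genes called depended more on the setting, and the cause was not tested. For the mean of the 3 lines 15 were called, 82 without the filter, 444 with DESeq2 and 6 (without CK replicate 1) to 740 (without P3.9a replicate 1) with 1 library left out. P2.4a had 3, 127 with DESeq2, 238 in the fit of 6 libraries and 0 to 56 with 1 left out. P3.9a had 14, 33 without the filter, 238 with DESeq2, 3 in the fit of 6 libraries and 5 to 105 with 1 left out. P9.10a had 5, 9 without the filter, 150 with DESeq2, 16 in the fit of 6 libraries and 1 to 12 with 1 left out. Among the lines 3 were called, 45 with DESeq2 and 2 to 6 with 1 left out. Without P3.9a replicate 1 the chlorophyll synthesis and the breakdown lists each held 1 called gene.

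The replicate numbers did not pair the samples: same-numbered libraries had correlations of deviations between -0.309 and 0.265, over 0.1 in 4 of 18 pairs, and 3 of 12 libraries correlated best with their own number. With the replicate number as a block 4 genes were called for the mean of the 3 lines and 4 in P3.9a, Lhcb5 in P2.4a stood at 0.0043, and psbS in the mean of the 3 lines no longer had an unadjusted p under 0.05 (edgeR unadjusted p = 0.0621).

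Leaving out 1 library, r ran from 0.679 to 0.882 for CAB21 and psbS, from 0.457 to 0.755 for Lhcb4 and psbS, from 0.550 to 0.725 for CAB21 and Lhcb5 and from 0.571 to 0.746 for CAB21 and Lhcb6. Without the 2 libraries farthest from the median of CAB21, r was 0.470, 0.521 and 0.511 for CAB21 with Lhcb4, Lhcb5 and Lhcb6. For psbS with Lhcb4 and Lhcb6 r was 0.551 and 0.667, each without the 2 libraries farthest from the median of that antenna gene. These correlation alternatives and the ratios with a library left out were chosen after seeing the data. The near-copy comparison was not run. Each of the 5 genes had at least 8756 counts in every library, so the spread between libraries sets the error more than depth does.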
